A study of Mus musculus with 6 samples.

Results

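Of the 4028 Gli3 binding sites (GBS) listed on the autosomes (chromosomes 1 to 19), 318 (7.89%, 95% Wilson interval 7.1 to 8.77%) lay at the promoter of a noncoding transcript and of no coding one. They are called noncoding promoter sites here. Each has its midpoint within 2 kb of the transcription start site (TSS) of an annotated transcript (GENCODE M21, mm10), and no TSS of a protein-coding transcript lies within that distance. Positions that meet the same rule cover 6.64% of the autosomal sequence. Positions near coding TSSs cover 4.81% of it and held 37.7% of sites. These shares were not tested. In all, 17.3% of the 1838 sites near any TSS were noncoding promoter sites. The other 1520 of these were coding promoter sites, and 2190 sites had no annotated TSS within 2 kb (nonpromoter sites). The list as used here holds 4114 sites in all, with 86 off chromosomes 1 to 19. It came from chromatin immunoprecipitation with a Gli3 antibody (ChIP-seq) on whole dissected cerebral cortex of wild-type mouse embryos at E15, with 3 ChIP libraries and 3 libraries of input DNA, the same chromatin without the antibody step. No other genotype or treatment entered the list. The authors joined the replicates in 1 list of positions, without height, score or p-value, so that the read depth is unknown and no error between embryos can be given. Intervals and p-values below therefore cover the spread over sites alone.

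Gli3 is a zinc finger transcription factor of the Hedgehog pathway, which is cut to a repressor where the ligand is absent and limits ventral programs in the developing cortex. GLI proteins share a DNA-binding domain that recognizes a short core sequence. Long noncoding RNAs (lncRNAs) are transcripts without a known protein product that often start close to genes of developmental transcription factors. Noncoding means here any transcript type other than protein-coding. Coding genes also give rise to such isoforms, called noncoding isoforms here. They include transcripts that retain an intron, lack an open reading frame or are marked for nonsense-mediated decay, and can start far inside the gene.

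By the gene of the nearest TSS, 124 of the noncoding promoter sites (39.0%, 33.8 to 44.5%) belonged to lncRNA genes and 101 (31.8%, 26.9 to 37.1%) to noncoding isoforms of coding genes. Another 39 (12.3%) belonged to small RNA genes, 26 (8.18%) to pseudogenes, and 28 (8.81%) to gene models of the provisional class TEC, with 1 constant segment of a T cell receptor among them. The lncRNA sites comprised 81 at lincRNA genes, 27 at genes annotated as antisense, 13 at processed transcripts, 2 at sense intronic and 1 at sense overlapping genes. In 19 of the 318 sites, transcripts of more than 1 of these classes started within 2 kb. The sites belonged to 312 distinct genes, so that few genes held more than 1. The nearest transcript had an annotated support level of 1 to 3 in 149 of the 318 (46.9%), against 74.9% of coding promoter sites. This held for 64.5% of lncRNA sites, 66.3% of isoform sites, 2 of 26 pseudogene sites, 0 of 39 small RNA sites and 0 of 28 TEC or other sites. A promoter here is the surroundings of an annotated start, and its activity was not measured.

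The exact GLI core GACCACCCA was searched on both strands over the whole length of each site. It occurred in 35 of the 318 noncoding promoter sites (11%, 8.02 to 14.9%), 38 times in all. In the regions of the same length beside these sites, 23 of 635 (3.62%, 2.43 to 5.38%) held it. Shown are the cores of the sites with more than 1 core, of sites with a core within 250 bp of the nearest TSS, and of the site next to *Ptch1*. Each has 21 bases on either side and is read on the strand of the core, which stands in capitals. One more core of this kind, at *Mcc*, is not printed.
Gm3764, first core (mm10 chr3:88227525-88227575, plus strand): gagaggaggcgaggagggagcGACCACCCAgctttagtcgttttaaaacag
Gm3764, second core (mm10 chr3:88228691-88228741, minus strand): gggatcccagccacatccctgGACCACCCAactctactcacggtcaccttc
Gm34425, first core (mm10 chr9:120867757-120867807, minus strand): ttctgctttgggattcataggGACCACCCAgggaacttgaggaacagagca
Gm34425, second core (mm10 chr9:120868053-120868103, plus strand): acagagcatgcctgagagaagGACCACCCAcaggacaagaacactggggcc
Gm34425, last core (mm10 chr9:120870986-120871036, plus strand): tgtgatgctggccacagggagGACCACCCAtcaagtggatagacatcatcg
Hivep3 (mm10 chr4:120032650-120032700, minus strand): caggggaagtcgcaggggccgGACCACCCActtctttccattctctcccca
Gm45168 (mm10 chr7:79579167-79579217, minus strand): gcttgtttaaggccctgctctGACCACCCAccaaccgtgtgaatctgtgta
Gm47043 (mm10 chr9:120004180-120004230, plus strand): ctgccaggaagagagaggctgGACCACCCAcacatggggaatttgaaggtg
Gm12299 (mm10 chr11:67002133-67002183, minus strand): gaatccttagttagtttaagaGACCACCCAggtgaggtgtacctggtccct
Zmiz1 (mm10 chr14:25607636-25607686, minus strand): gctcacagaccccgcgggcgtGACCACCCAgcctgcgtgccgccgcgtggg
A930032L01Rik (mm10 chr13:63569264-63569314, minus strand): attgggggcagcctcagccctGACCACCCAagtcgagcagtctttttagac

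*Gm3764*, a lincRNA gene on chromosome 3, held the widest of the 318 sites, 9947 bp at chr3:88223705-88233651. Its first core lay in an exon of *Gm3764*, 1233 bp upstream of the nearest TSS, and its second in an intron, 67 bp upstream of that TSS. *Gm34425*, a lincRNA gene on chromosome 9, held 3 cores in a site of 7248 bp at chr9:120864843-120872090. The nearest coding TSS, 60.7 kb away, was that of *Ctnnb1*, which encodes β-catenin. These were the 2 sites with more than 1 core.

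Cores close to a TSS were found in 7 sites. They lay 91 bp upstream of the TSS of a *Hivep3* isoform, 177 bp upstream of one of *Zmiz1* and 74 bp upstream of one of *Mcc*. *Hivep3* encodes a zinc finger protein, and *Zmiz1* a coactivator related to the PIAS proteins. At the lincRNA genes *Gm45168* and *Gm47043*, the core lay 113 bp upstream and 168 bp downstream, and at *Gm12299* it lay 72 bp downstream. The site at *Gm47043* was only 489 bp wide and sat within *Cx3cr1*, the gene of the fractalkine receptor of microglia. The 7 sites include that of *Gm3764* with its second core.

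Across the 38 cores, 21 were on the strand of the transcript and 15 lay upstream of its TSS. The cores were 377 bp from the midpoint of the site in the median, and 7 of the 318 sites (2.2%) held one in their central 200 bp. Of the cores, 21 were intronic, 11 exonic and 6 intergenic. With 1 mismatch allowed, 208 of the 318 sites (65.4%) held a match, near the 63.6% of coding promoter sites and 65.9% of nonpromoter sites.

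**Figure D1:**
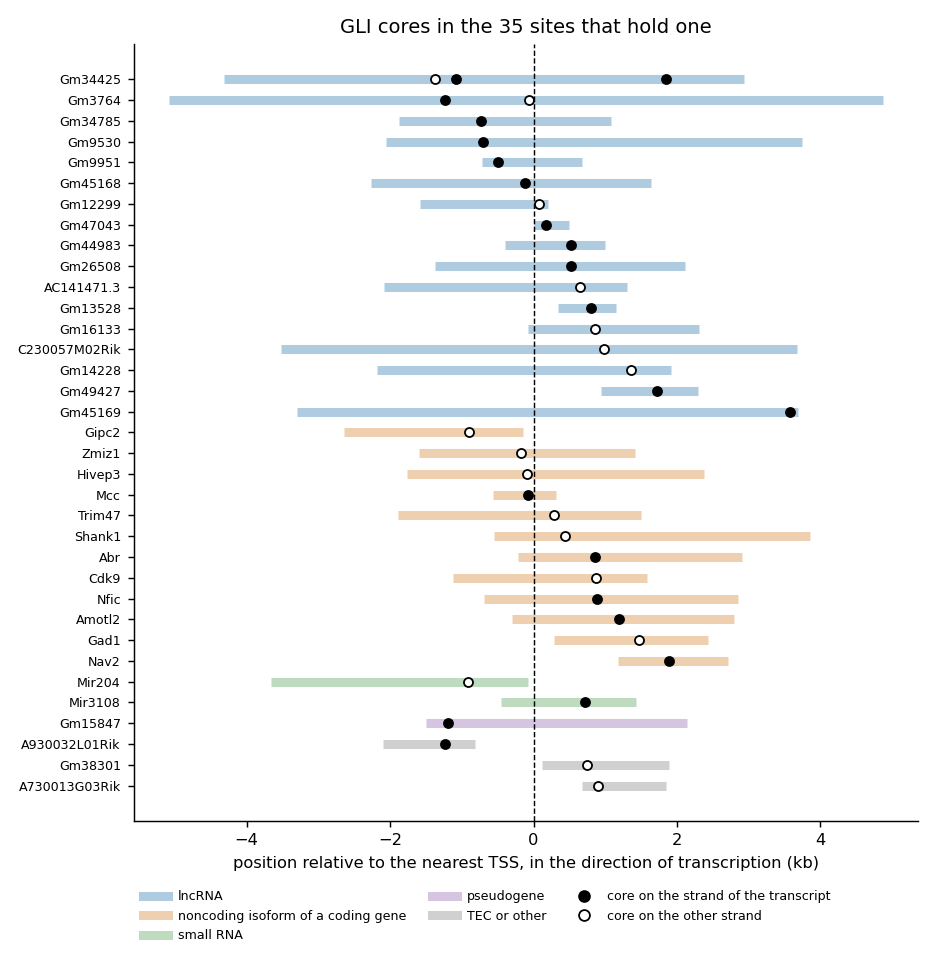
The plot of GLI cores shows the 35 noncoding promoter sites that hold a core, named by the gene of the nearest TSS. The horizontal axis is the position in kb relative to that TSS (dashed line), bars give the extent of each site, filled circles cores on the strand of the transcript and open circles cores on the other strand. Of the 38 cores, 15 lie left of the TSS.

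The share with a GLI core differed from neither other class of site by more than the spread over sites. Coding promoter sites held it in 131 of 1520 (8.62%, odds ratio 1.31, 95% interval 0.884 to 1.95, adjusted p = 0.196, Fisher's exact test). Nonpromoter sites held it in 327 of 2190 (14.9%, odds ratio 0.705, 0.487 to 1.02, adjusted p = 0.101, Fisher's exact test). Both tests were two-sided, with Benjamini-Hochberg adjustment over the 7 features of each comparison. Beside the other classes the flanks held the core in 1.71% and 1.72%, so that the ratio of sites to flanks was 3.04 for noncoding promoter sites, 5.03 for coding promoter sites and 8.69 for nonpromoter sites. These ratios were not tested, and flanks that overlap other listed sites were not left out. With windows that reach upstream of a TSS only, the difference from nonpromoter sites passed the threshold (odds ratio 0.546, adjusted p = 0.00247, Fisher's exact test), and with the search limited to the central 200 bp the odds ratio was 1. Under the upstream rule a coding TSS no longer counts where the midpoint lies downstream of it. Coding promoter sites then fell from 1520 to 840, while noncoding promoter sites rose to 363 and nonpromoter sites to 2825.

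Noncoding promoter sites were poor in CpG dinucleotides beside coding promoter sites and rich in them beside nonpromoter sites. A site was called CpG-rich where its central 500 bp had a GC content of at least 50% and an observed to expected ratio of CpG of at least 0.6, as in CpG islands. This held for 43 of the 318 (13.5%, 10.2 to 17.7%), for 56.9% of coding promoter sites (odds ratio 0.118, 0.0845 to 0.166, adjusted p = 5.23e-48) and for 2.88% of nonpromoter sites (odds ratio 5.28, 3.51 to 7.94, adjusted p = 8.55e-13, two-sided Fisher's exact tests). The flanks of noncoding promoter sites were CpG-rich in 2.05%. Median CpG ratios were 0.278, 0.683 and 0.221 in the order noncoding promoter, coding promoter and nonpromoter, and median GC contents were 52.4%, 60.2% and 49.0%. The share of CpG-rich noncoding promoter sites changed with the rule for a promoter. With transcripts of support level 1 to 3 alone it was 48 of 208 (23.1%), against 57.9% of coding promoter sites (odds ratio 0.218, adjusted p = 1.34e-20, Fisher's exact test). With upstream windows only it was 144 of 363 (39.7%), against 57.3% (odds ratio 0.491, adjusted p = 7.28e-08, Fisher's exact test). Against nonpromoter sites the odds ratios were 5.09 and 4.71. Both rules take sites out of the coding promoter class (1357 and 840 left of 1520), and these sites then count in the other classes. Nonpromoter sites were CpG-rich in 5.56% and 12.2% under these rules.

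The SP motif GGGCGGGG, bound by SP and KLF factors at CpG islands, was similarly placed between the classes. It occurred in 89 noncoding promoter sites (28.0%) and in 12.4% of their flanks. Coding promoter sites held it in 61.4% (odds ratio 0.245, 0.187 to 0.319, adjusted p = 3.20e-27) and nonpromoter sites in 15.5% (odds ratio 2.12, 1.62 to 2.78, adjusted p = 5.73e-07, two-sided Fisher's exact tests). With upstream windows only, the odds ratio against coding promoter sites was 0.48.

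The homeodomain motif TAATTA, read by LHX and DLX factors among others, was in 121 noncoding promoter sites (38.1%), against 30.4% of coding promoter sites (odds ratio 1.41, 1.09 to 1.81, adjusted p = 0.0169) and 43.7% of nonpromoter sites (odds ratio 0.79, 0.62 to 1.01, adjusted p = 0.101, two-sided Fisher's exact tests). The flanks held it as often, in 38.6%. The difference from coding promoter sites was lost with upstream windows only (odds ratio 1.2, adjusted p = 0.203, Fisher's exact test). The E-box CAGCTG of bHLH factors was in 226 (71.1%), against 66.6% of coding promoter sites (adjusted p = 0.152), 70.3% of nonpromoter sites (adjusted p = 0.793, two-sided Fisher's exact tests) and 60.6% of flanks. Without sites of mostly repeated words, the difference in CAGCTG from coding promoter sites passed the threshold (odds ratio 1.47, adjusted p = 0.0124, Fisher's exact test).

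**Figure D2:**
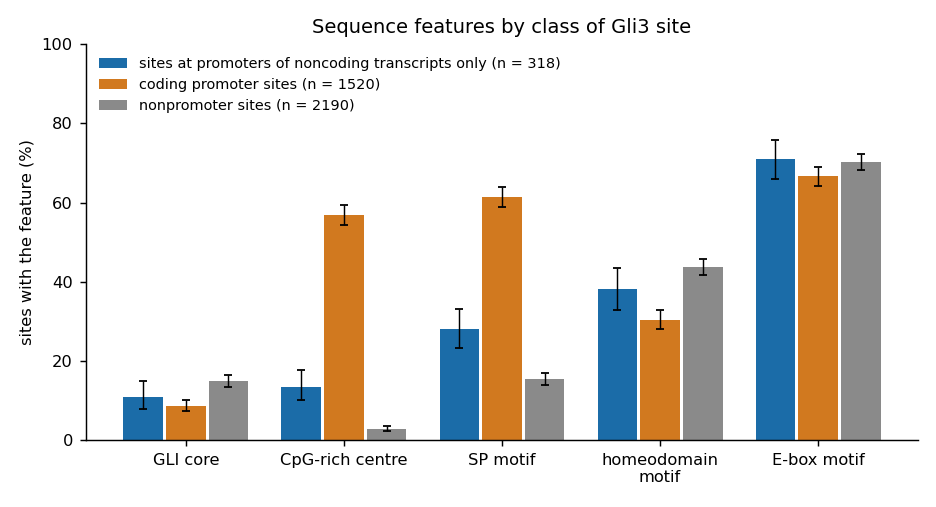
The bar chart gives the percent of sites with a GLI core, a CpG-rich centre, an SP motif, a homeodomain motif or an E-box, for the 318 noncoding promoter, 1520 coding promoter and 2190 nonpromoter sites, with 95% Wilson intervals. For CpG-rich centres the blue bar (13.5%) stands between 56.9% and 2.88%, and for the GLI core the bars stand at 11%, 8.62% and 14.9%.

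Within the noncoding promoter sites, lncRNA sites and sites at noncoding isoforms did not differ by more than the spread over sites in the 2 features tested. The GLI core was in 17 of 124 lncRNA sites (13.7%) and in 12 of 101 isoform sites (11.9%, odds ratio 1.18, 0.534 to 2.6). CpG-rich centres were found in 14 of 124 (11.3%) and 8 of 101 (7.92%, odds ratio 1.48, 0.595 to 3.68). Both adjusted p-values were 0.842 (two-sided Fisher's exact tests, adjusted over the 2 features), and the intervals leave room for either class to be the higher. With upstream windows only, both odds ratios turned (0.838 and 0.705). Beside the lncRNA sites, 4.03% of flanks held a GLI core and 0.806% were CpG-rich. The remaining cores were in 2 small RNA sites, 1 pseudogene site and 3 TEC sites.

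lncRNA sites sat close to the TSS. The midpoint was within 500 bp of it in 74 of 124 (59.7%, 50.9 to 67.9%) and the TSS itself lay inside the site in 101 (81.5%, 73.7 to 87.3%). At noncoding isoforms the same shares were 28.7% (20.8 to 38.2%) and 63.4% (53.6 to 72.1%). Over all 318 sites the midpoint was within 500 bp of the TSS in 134 (42.1%) and the TSS was inside the site in 217 (68.2%), against 63.8% and 90.5% of coding promoter sites. The midpoint was downstream of the TSS in 167 of 318 (52.5%), against 57.8% of coding promoter sites (odds ratio 0.807, 0.633 to 1.03, unadjusted p = 0.0926, two-sided Fisher's exact test).

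**Figure D3:**
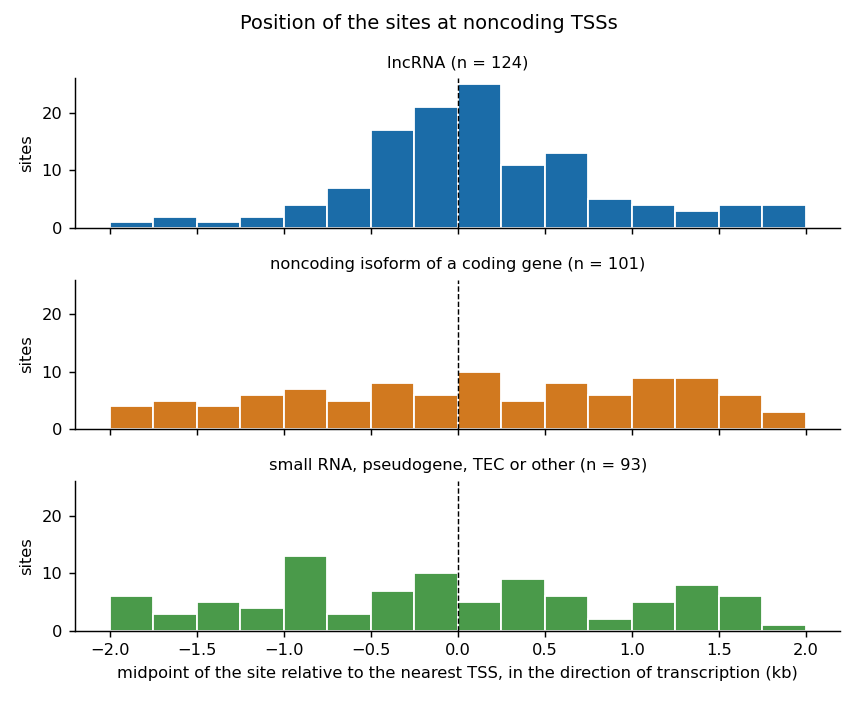
The histograms give the number of noncoding promoter sites by the position of their midpoint relative to the nearest TSS, in bins of 0.25 kb, for 124 lncRNA sites, 101 sites at noncoding isoforms and the other 39 small RNA, 26 pseudogene and 28 TEC or other sites. Of the lncRNA sites, 59.7% have their midpoint within 0.5 kb of the TSS, against 28.7% at noncoding isoforms.

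A few lncRNA genes known from neural and developmental biology were among them. Of 65 such genes of a prepared list that are annotated, most of them as lncRNA genes, 3 (4.62%) had a noncoding promoter site, namely *Pantr2*, *Kcnq1ot1* and *A830082K12Rik*, against 132 of all 9426 lncRNA genes (1.4%). With sites of any class, 4 of the 65 (6.15%) had one within 2 kb of a TSS, against 363 of all lncRNA genes (3.85%). Among the 7305 lncRNA genes without a coding TSS nearby, 130 (1.78%) had a site. The list counts were not tested. This list and those below were chosen with earlier results of these data known, so that their shares are no independent evidence. *A830082K12Rik* starts beside *Nr2f1*, which encodes a nuclear receptor of cortical area patterning, and the midpoint of its site (chr13:78199308-78205450) was 5 bp from its TSS and 2622 bp from that of *Nr2f1*. This site was 6143 bp wide, so that it also spanned the coding TSS of *Nr2f1* and met the rule by its midpoint alone. The site at *Pantr2* (chr1:42710833-42712817) was in an intron, 1629 bp downstream of the TSS, and 16.1 kb from *Pou3f3*, a POU homeodomain gene of upper-layer neurons. *Kcnq1ot1* is the imprinted antisense transcript of *Kcnq1*, and its site (chr7:143294845-143296943) lay 655 bp downstream of the TSS with a CpG ratio of 0.943. None of these 3 sites held a GLI core.

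The host gene *Mir9-3hg* was the 1 gene with a site among the 33 annotated genes of a second list, of small RNAs and their hosts (3.03%, against 3.85% of all lncRNA genes and 1.89% of all small RNA genes). Its site was 3066 bp wide (chr7:79498886-79501951), with the midpoint 298 bp downstream of the TSS. The sequence around this TSS is shown beside that of *Kcnq1ot1*, since both are dense in CpG. Each stretch has 300 bases, read in the direction of transcription with the TSS at base 151 and with each CpG in capitals.
Mir9-3hg (mm10 chr7:79499971-79500270, plus strand): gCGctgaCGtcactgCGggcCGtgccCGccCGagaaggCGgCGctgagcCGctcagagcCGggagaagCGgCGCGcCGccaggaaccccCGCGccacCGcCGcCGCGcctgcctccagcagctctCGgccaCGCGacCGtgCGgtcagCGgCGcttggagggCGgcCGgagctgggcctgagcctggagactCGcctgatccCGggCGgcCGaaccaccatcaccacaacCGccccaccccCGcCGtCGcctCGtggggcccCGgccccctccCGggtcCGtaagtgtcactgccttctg
Kcnq1ot1 (mm10 chr7:143296400-143296699, minus strand): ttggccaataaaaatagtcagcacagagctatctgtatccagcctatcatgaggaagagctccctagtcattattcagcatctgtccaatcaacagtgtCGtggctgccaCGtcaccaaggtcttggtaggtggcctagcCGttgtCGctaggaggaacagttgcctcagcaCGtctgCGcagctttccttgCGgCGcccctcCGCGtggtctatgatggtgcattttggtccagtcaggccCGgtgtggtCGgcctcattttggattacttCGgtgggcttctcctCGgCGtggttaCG

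*Mir9-3hg* had 41 CpG in this window (GC content 76.3%, CpG ratio 0.951) and *Kcnq1ot1* had 16 (54.7%, 0.714). The same window at *A830082K12Rik* had 9 (47%, 0.583). The site at *Mir9-3hg* was nevertheless not called CpG-rich, as the ratio in its central 500 bp was 0.53. The 3 windows held no GLI core, SP, TAATTA or CAGCTG motif.

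Sites at noncoding TSSs lay at both *Mir9-3hg* and *Gm3764*, and the annotated hairpin of *Mir9-1* is inside the latter gene on the same strand. miR-9 is a brain-enriched microRNA that acts on neural progenitors. *Mir9-1* and *Mir9-3* give the same mature miR-9-5p and miR-9-3p. These are shown with their seed (bases 2 to 8) in capitals, beside miR-204-5p, whose gene also had a site with a GLI core. The sequences are from RefSeq (GRCm38.p6), in which 13 of the 18 microRNA genes with a noncoding promoter site were found by symbol.
miR-9-5p: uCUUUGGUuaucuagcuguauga
miR-9-3p: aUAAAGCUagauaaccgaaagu
miR-204-5p: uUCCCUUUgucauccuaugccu

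The 3 seeds differ from each other. *Gm3764* had 3 noncoding promoter sites, whose midpoints were 7.94 kb upstream and 6.7 and 13 kb downstream of the *Mir9-1* hairpin, and 2 further sites were within 50 kb. At *Mir9-3*, the site of the host gene ended 3.31 kb before the hairpin, and 4 further sites were within 50 kb, 1 of which overlapped the hairpin. Sites near *Mir9-2*, the other miR-9 locus, were not assessed, since the search could not tell a missing hairpin entry from an absent site. The microRNA loci were chosen after the positions of the sites had been seen.

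**Figure D4:**
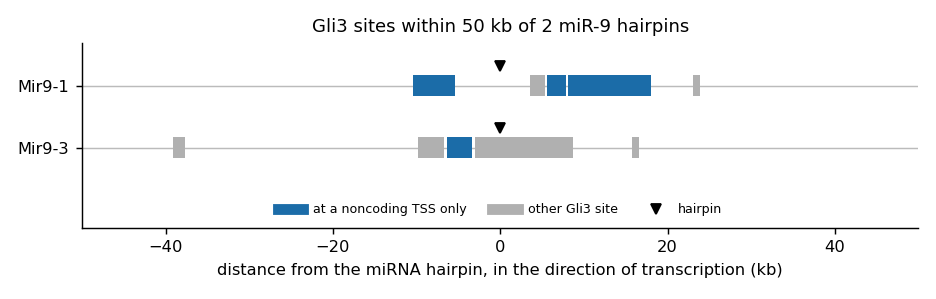
The map shows Gli3 sites within 50 kb of the hairpins of *Mir9-1* and *Mir9-3* as bars to scale, with the distance in kb in the direction of transcription. Blue bars are noncoding promoter sites (3 and 1), gray bars are other Gli3 sites, and triangles mark the hairpins.

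Of 35 annotated genes of a Hedgehog pathway list, *Gli2* and *Sufu* (5.71%) had a noncoding promoter site within 2 kb of the TSS of one of their noncoding isoforms, against 104 of all 20807 protein-coding genes (0.5%). Counting sites of any class, 14 of the 35 (40%) had one within 2 kb of a TSS, against 1764 of all protein-coding genes (8.48%). For 4 of the noncoding promoter sites (1.26%) the nearest coding gene was on the list, beside 13 of the coding promoter sites (0.855%) and 24 of the nonpromoter sites (1.1%). These counts describe the list and were not tested. *Gli2* encodes the main activating GLI protein, and its site (chr1:118980061-118983645) was intronic, 735 bp downstream of the TSS of a noncoding isoform and 71.5 kb from the nearest coding TSS. *Sufu* encodes the cytoplasmic inhibitor of GLI proteins, and its site was 1453 bp downstream of a retained-intron isoform.

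The site with a core near *Ptch1*, the Hedgehog receptor and a transcriptional target of the pathway, lay in an intron of *Ptch1*, 3.77 kb from its nearest coding TSS. The noncoding transcript there is *A930032L01Rik* (TEC), whose TSS was 1456 bp from the midpoint. A site at *2610105M22Rik* was 57.2 kb from *Cdon*, which encodes a Hedgehog coreceptor. A site at *4930519A11Rik* was 36.3 kb from *Mycn*, a proliferation factor. Neither of the latter held a GLI core.

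Of 41 genes listed for the lineage switch from excitatory neurons to glia and olfactory interneurons, *Nfia*, *Nfix* and *Hes1* (7.32%) had a noncoding promoter site at a noncoding isoform, against the same 0.5% of all protein-coding genes. A site of any class was near a TSS of 9 of the 41 (22%), against 8.48%. The nearest coding gene was on this list for 8 of the noncoding promoter sites (2.52%), for 8 of the coding promoter sites (0.526%) and for 39 of the nonpromoter sites (1.78%), again without a test. *Nfia* and *Nfix* encode nuclear factor I proteins of gliogenesis. Their sites were 957 bp upstream and 229 bp downstream of the isoform TSS. *Hes1*, a Notch effector, had a CpG-rich site 1083.5 bp upstream of an isoform TSS and another at the lincRNA gene *4632428C04Rik*, 55.3 kb away.

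*Lhx2*, a selector gene of cortical identity, had a CpG-rich site at the TSS of its antisense transcript *Gm27197* (midpoint 20 bp away, 2463 bp from a coding TSS) and a second at *Gm13589*, 71.6 kb downstream. *Sox2*, the gene of a progenitor factor, had sites at the TEC models *Gm42692*, 7.76 kb upstream, and *Gm42693*, 12.4 kb downstream, both within introns of *Sox2ot*. None of these 8 sites, nor that of *Nfix*, held a GLI core.

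Over the 318 sites the nearest coding TSS was 26.9 kb away in the median (quartiles 9.47 and 58.9 kb). The median was 33.6 kb for lncRNA sites and 17.2 kb for sites at noncoding isoforms. The nearest coding gene belonged to one of the listed transcription factor families (such as Sox, Pou, Lhx, Nfi, Hes and Gli) in 20 sites (6.29%, 4.11 to 9.51%), against 2.63% of coding promoter sites and 6.44% of nonpromoter sites. These 20 sites lay near 15 genes. In all, 291 coding genes were nearest to a noncoding promoter site, and 3 of them to 3 or more, namely *Gas8*, *Rhou* and *Rhbg*. *Rhbg*, an ammonium transporter gene, is the coding neighbor of the 3 sites of *Gm3764*.

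Midpoints were intronic in 175 of the 318 sites (55.0%), exonic in 81 (25.5%) and intergenic in 62 (19.5%). At lncRNA genes, 97 of 124 midpoints lay outside any coding gene and 27 inside one, of which 26 were transcribed against the coding gene. At noncoding isoforms, 98 of 101 midpoints lay inside the gene of the isoform, and for 26 the nearest coding TSS was that of another gene. These isoforms were of the type processed transcript in 69 sites, retained intron in 30 and nonsense-mediated decay in 2.

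The small RNA class was led by microRNA genes (18 sites) and ribosomal RNA genes (12 sites). Of 5123 small RNA genes without a coding TSS nearby, 63 (1.23%) had a site. Among the microRNA sites, 2 held a GLI core, at *Mir204*, in an intron of *Trpm3*, and at *Mir3108*, in an intron of *Zfhx3*. The core of the *Mir204* site was 909 bp upstream of the annotated start of the microRNA gene and that of the *Mir3108* site 723 bp downstream.

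Of the 12 ribosomal RNA sites, 10 fell in 78.4 kb of chromosome 8 (chr8:123546996-123625433), a cluster with 46 annotated rRNA genes, named after 5S rRNA for the most part, within the coding gene model *Gm20388*. Their nearest coding TSSs were those of *Gas8* and *Rhou*. The sites were 1201 to 7142 bp wide and 6 of them were CpG-rich. None held a GLI core (0 of 10 sites). A rough upper limit, taken as 3 counts in 10 sites, is 30%, and it treats these sites as independent. In these sites 84.4 to 100% of the 32-base words, taken every 10 bases, had a second copy somewhere in the mouse assembly. According to the labels, the authors removed repeats. The sources used here do not say how reads with several placements were treated. The part of repeated sequence in these sites was not tested. They raised the share of noncoding promoter sites on chromosome 8 to 13.8% of its sites, against 10.2% without the cluster.

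Pseudogene sites numbered 26, with 18 at processed pseudogenes. Of 11234 pseudogenes without a coding TSS nearby, 30 (0.267%) had a site. One, *Gm15847*, held a GLI core, in an exon of the coding gene *Slc10a4*. Repeated words made up over 50% of 7 of the 26 pseudogene sites (26.9%, 13.7 to 46.1%) and of 12 of the 39 small RNA sites (30.8%, 18.6 to 46.4%). For lncRNA sites this held for 2 of 124 (1.61%, 0.443 to 5.69%), and for noncoding isoforms for 3 of 101 (2.97%). Without the 25 sites of mostly repeated words, 293 remained, with lncRNA at 41.6%, noncoding isoforms at 33.4%, small RNA at 9.22% and pseudogenes at 6.48%. All 35 sites with a GLI core were among these 293.

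**Figure D5:**
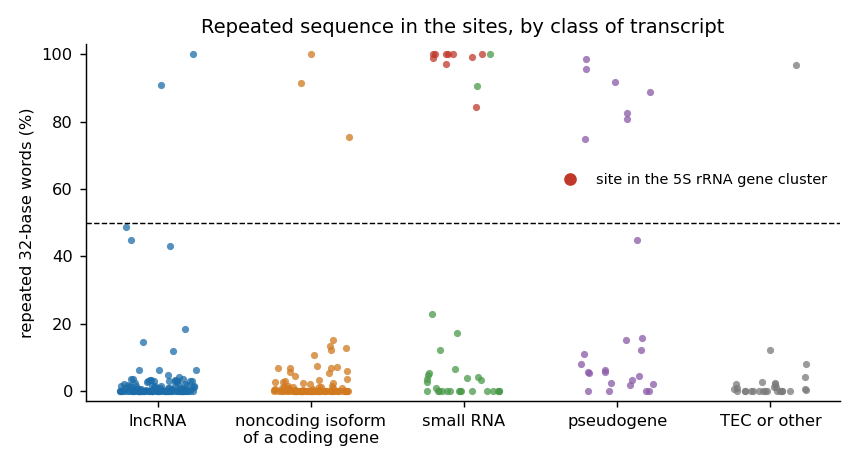
Each point is a noncoding promoter site, placed by the percent of its 32-base words with a second copy in the assembly, in columns by class of transcript. The dashed line marks 50%, and red points are the 10 sites in the 5S rRNA gene cluster, between 84.4 and 100%.

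Noncoding promoter sites had another site close by more often than coding promoter sites. The midpoint of another site was within 10 kb for 56 of 318 (17.6%, 13.8 to 22.2%), against 9.47% of coding promoter sites (odds ratio 2.04, 1.46 to 2.86, adjusted p = 1.49e-04) and 13.2% of nonpromoter sites (odds ratio 1.41, 1.03 to 1.92, adjusted p = 0.0851, two-sided Fisher's exact tests). Of the 56, 8 were in the 5S rRNA gene cluster. Closeness is mutual, so that both sites of a close pair are counted. The p-values treat such sites as independent and may be too small. Without sites of mostly repeated words the odds ratios were 1.89 (adjusted p = 0.0025) and 1.23 (adjusted p = 0.264, Fisher's exact tests). With sites less than 1 kb apart joined, 31 of 303 noncoding promoter sites (10.2%) had a neighbor, against 5.97% of coding promoter sites (odds ratio 1.8, adjusted p = 0.0193) and 9.54% of nonpromoter sites (odds ratio 1.08, adjusted p = 0.678, Fisher's exact tests).

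The sites were 322 to 9947 bp wide, with a median of 1989.5 bp. Fewer of them exceeded the median width of all sites, 2004.5 bp, than coding promoter sites did (49.7% against 57.3%, odds ratio 0.736, 0.578 to 0.937, adjusted p = 0.0215), and the share among nonpromoter sites was 45% (odds ratio 1.21, 0.955 to 1.53, adjusted p = 0.137, two-sided Fisher's exact tests). The difference from coding promoter sites turned with windows of 1 kb (odds ratio 1.13) or upstream only (1.22) and was lost with a limit of 4 kb for a wide site (0.921), and with windows of 1 kb the difference from nonpromoter sites passed the threshold (1.51). Besides the sites of *Gm3764* and *Gm34425*, the 5 widest were at the lncRNA gene *Gm14488* (8982 bp), at *Gm47297*, a microRNA gene within *Bahcc1* (7524 bp), and at the TEC model *Gm37352* (7371 bp).

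The limits of 2 kb cut through a continuum of distances. The site farthest from its TSS was at a retained-intron isoform of *Cdh2*, the N-cadherin gene, at 1988.5 bp, and the nearest nonpromoter site beyond the limit was at *Ccdc80*, at 2008.5 bp. The noncoding promoter site closest to a coding TSS was that of *Hes1*, at 2039.5 bp, while a site at *Ier2*, 1993.5 bp from one and also near a noncoding TSS, counted as a coding promoter site. Of the 318 sites, 6 were within 100 bp of the outer limit and 18 lay 2 to 3 kb from a coding TSS. Positions that satisfy the same rule cover 6.64% of the autosomal sequence, beside the 7.89% of sites found there, whereas positions near coding TSSs cover 4.81% and held 37.7% of sites.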

How the data were processed

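The data were the deposited list of Gli3 peaks from 3 ChIP and 3 input libraries. According to the labels, the authors took 85 bases per read end, removed repeats and aligned with Bowtie2 to mm10. The paper names irreproducible discovery rate (IDR) analysis, which retains peaks that recur between replicates, and the list is labeled as its optimal set. The submitters' processing notes also name MACS2 and SAMtools. Versions and thresholds are not given in the sources used here. The deposited values are positions (chromosome, start, end and name), with no count, signal or p-value. The filter on repeats and the thresholds decide which sites are listed and how wide they are, and wide sites hold more chance matches of a motif. Sites of mostly repeated words nevertheless remained in the list.

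Starts were converted to 1-based positions. Genes came from GENCODE M21 and sequence from GRCm38.p6, the assembly of mm10. A site was placed by its midpoint and classed by the gene type of the nearest TSS. Motifs were searched on both strands. None of the 4 motifs contains another. Local background came from 2 flanks per site, each of its own length and starting 1 site length from its edge. Classes of sites were compared with two-sided Fisher's exact tests. Genes named were those of the lists of neural lncRNAs and small RNA hosts, sites with 2 or more cores or a core within 250 bp of the TSS, the 5 widest sites, sites at or next to genes of the Hedgehog and lineage switch lists, coding genes nearest to 3 or more sites, and sites beside the 2 kb limits. Others (*Mir204*, *Mir3108*, *Mir9-1*, *Mir9-2* and *Gm15847*) were chosen after their values were seen. The members and the lists were chosen with earlier results of these data known. The scripts were tested on simulated data, in which 200 of 200 planted cores were found and 500 of 500 midpoints planted at noncoding TSSs were classed as such. The planted cores were exact matches and these TSSs lay away from coding ones, so that the checks cover the code alone. Software was matplotlib 3.10.9, numba 0.67.0, pysam 0.24.0, scipy 1.17.1, numpy 2.4.6 and python 3.11.15. Alternatives concerned the promoter window, the annotation, the joining of sites, the part of the site searched, the match and repeated sequence.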

Additional observations from a re-analysis of the deposited data

How the results depend on the processing

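Of 133 values recomputed under alternatives, 104 were classed as unchanged. For a tested value this means the same direction and side of the threshold. The number of noncoding promoter sites and the lncRNA share have neither. The number, 318 in the main setting, was classed as unchanged at 266 (1 kb), 363 (upstream only) and 378 (any overlap). With transcripts of support level 1 to 3 alone, 208 sites met the rule and lncRNA genes held 46.6%, and with windows of 1 kb they held 46.2%. Against coding promoter sites, the odds ratio of CAGCTG passed the threshold at 1.43 (1 kb), 1.46 (upstream only), 1.48 (support level), 1.47 (without repeated sites) and 1.48 (central 500 bp), that of TAATTA was lost at 1.2 (upstream only), that of wide sites turned at 1.13 (1 kb) and 1.22 (upstream only) and was lost at 0.877 (support level) and 0.921 (4 kb), and that of downstream midpoints passed at 0.708 (any overlap). Against nonpromoter sites, wide sites passed at 1.51 (1 kb), 1.58 (upstream only), 1.38 (any overlap) and 1.43 (support level), neighboring sites at 1.47 (any overlap), TAATTA at 0.716 (upstream only) and 0.629 (central 500 bp), and the GLI core at 0.546 (upstream only), while the core in the central 200 bp gave 1. Between lncRNA and isoform sites, none of which passed, the GLI core turned to 0.838 (upstream only), 0.784 (support level), 0.71 (1 mismatch) and 0.601 (central 200 bp), and CpG-rich centres to 0.705 (upstream only) and 0.531 (support level). Alternatives to the promoter rule also move sites between the classes, so that their values compare other sets of sites. The causes were not tested. Peaks could not be filtered more strictly, since the list has no scores, and the unknown depth limits what the absence of a site means. No paired analysis was possible because the replicates were joined in 1 list.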
